A study of Mus musculus with 4 samples.

Results

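The genes described here are the 5 that make and recycle tetrahydrobiopterin (BH4), namely Gch1, Gchfr, Pts, Spr and Qdpr. They were found by gene symbol in the platform annotation of the arrays, which assigned 8 probe sets to 1 of the 5 alone and 0 probe sets to 1 of them together with another gene. In all, 45037 probe sets and 18193 genes were measured. The samples were 4 mouse cell cultures whose titles name endothelial cells made from induced pluripotent stem cells (iPSCs). Such stem cells are adult cells that have been reprogrammed to an embryo-like state. Cells from 2 healthy mice (control 1 and control 2) and from 2 mice with diet-induced obesity (DIO 1 and DIO 2) were measured on 1 Affymetrix array each. All 4 mice were 24 weeks old, all cells were kept in endothelial medium, and all were trypsinized before RNA was taken. No strain, sex, diet or number of iPSC lines per mouse stands in the labels, and they mention no sort. The p-values set each group difference against the spread between the 2 cultures of each group, with information shared over all genes. They speak only for these samples, and that spread may be partly technical.

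BH4 is a cofactor that is built from GTP. Gch1, GTP cyclohydrolase I, carries out the first and usually rate-limiting step. Pts and Spr complete the molecule, and Qdpr returns the oxidized cofactor to its active form. Gchfr binds Gch1 and conveys the effects of BH4 and phenylalanine on that enzyme. Nitric oxide synthases need BH4, and endothelial nitric oxide synthase that lacks it makes superoxide in place of nitric oxide. The comparison of DIO with control asked whether transcripts of this route are altered in these cultures when the donor mouse was obese.

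The labels call the cells endothelial in the sample titles and iPSC in the cell type entry. Of 12 endothelial markers, 8 had a mean below the median of all gene means, which was 7.09 on the log2 scale. The 12 had mean levels of 6.16 and 6.28 on the control arrays and 6.05 and 5.98 on the DIO arrays, with Tie1 and Fli1 between 3.44 and 3.76 on all arrays. Other markers were brighter, the junction genes Cdh5 and Esam lying between 8.37 and 9.34 and Egfl7 between 8.27 and 8.98. Control 2 stood apart. The 12 epithelial and epidermal markers averaged 12.04 there against 8.70 in control 1, 9.56 in DIO 1 and 10.26 in DIO 2, and 8 of the 12 were highest in control 2. The 12 pluripotency markers had mean levels of 10.11 and 9.37 on the control arrays and 10.59 and 9.62 on the DIO arrays. On all arrays the epithelial and the pluripotency lists thus averaged above the endothelial markers, though levels of different probe sets have no common scale. The ribosomal RNA of the small subunit, a quality measure carried by control probe sets, read 12.60 and 12.65 on the control arrays and 12.30 and 11.96 on the DIO arrays.

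Gch1 had lower values in both DIO arrays than in both controls, and Pts had higher values in both DIO arrays, while Gchfr, Spr and Qdpr overlapped between the groups. None of the 5 genes passed the threshold of an adjusted p below 0.05 in limma, and 0% of all 18193 genes did. At an unadjusted p below 0.05 in limma there was 1 of the 5, Gch1, against 6.58% of all genes, or 3.32% of all genes when only those lower in DIO are counted. Under the 12 alternatives, the unadjusted p of Gch1 in limma was below 0.05 in 6 and not in the other 6. Both DIO arrays were below both controls for 1 of the 5, against 17% of all genes, and above both controls for 1 of the 5, against 21.4%, so that the groups did not overlap for 2 of the 5 genes and for 38.4% of all genes. A pattern of 1 gene on either side is thus close to what the whole table shows. With 2 arrays against 2, an exact permutation test of a single value cannot give a p under 0.333. The median difference of the 5, DIO minus control, was 0.13 on the log2 scale, beside 0.02 over all genes.

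**Figure D1:**
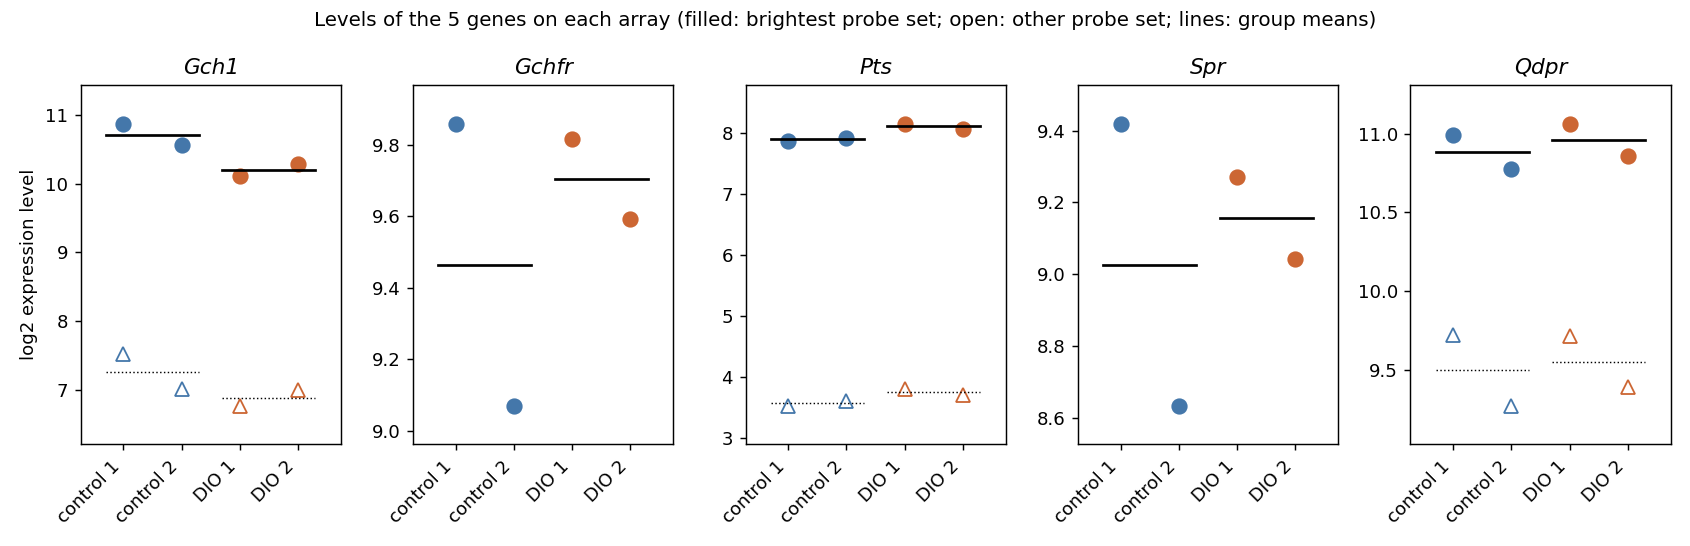
Log2 expression level (vertical axis, a separate scale for each gene) of the 5 genes on each of the 4 arrays, with filled circles for the probe set used in the tests, open triangles for a gene's other probe set, and lines at the group means. Gch1 is lower and Pts higher in both DIO arrays for both of their probe sets, while Gchfr and Spr are lowest in control 2.

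The promoter windows of Gch1, of its partner Gchfr and of Pts are shown because Gch1 and Pts were the members whose groups did not overlap, in opposite directions. Each window runs from 250 bases before to 50 bases after the gene's start in RefSeq (GRCm38.p6) and is written 5′ to 3′ along the gene. Capitals mark matches, on either strand, to 5 short motifs: CCAAT (the CCAAT box), GGGCGG (the GC box), TGACG (part of the cyclic AMP response element), TATAA (the TATA core) and TTCNNNGAA (the STAT site).
Gch1, chr14:47189364-47189663, minus strand: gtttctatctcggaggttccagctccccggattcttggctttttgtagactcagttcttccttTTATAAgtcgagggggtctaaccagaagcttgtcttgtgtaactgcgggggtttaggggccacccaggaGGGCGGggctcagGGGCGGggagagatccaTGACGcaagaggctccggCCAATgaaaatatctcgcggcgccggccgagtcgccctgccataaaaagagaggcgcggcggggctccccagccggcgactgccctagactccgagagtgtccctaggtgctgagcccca
Gchfr, chr2:119167538-119167837, plus strand: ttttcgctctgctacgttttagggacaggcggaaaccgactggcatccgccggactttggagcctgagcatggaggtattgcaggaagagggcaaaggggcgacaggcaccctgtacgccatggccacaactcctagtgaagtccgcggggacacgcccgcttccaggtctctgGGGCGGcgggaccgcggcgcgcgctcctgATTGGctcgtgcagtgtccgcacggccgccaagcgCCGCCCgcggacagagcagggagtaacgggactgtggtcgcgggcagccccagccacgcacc
Pts, chr9:50528607-50528906, minus strand: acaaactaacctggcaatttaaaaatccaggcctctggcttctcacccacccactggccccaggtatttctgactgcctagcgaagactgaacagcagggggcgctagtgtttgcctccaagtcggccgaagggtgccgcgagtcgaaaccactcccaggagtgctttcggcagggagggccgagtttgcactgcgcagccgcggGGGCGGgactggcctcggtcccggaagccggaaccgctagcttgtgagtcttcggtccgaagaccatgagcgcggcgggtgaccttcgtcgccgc
The Gch1 window held TGACG, 88 bases before the start, and CCAAT, 70 bases before it, with GGGCGG beginning 118 and 105 bases before the start. Its TATAA match lies 186 bases before the start and overlaps a match on the other strand, and TTCNNNGAA was not found in it. Gchfr held CCAAT on the other strand and GGGCGG on both strands, and Pts held a single GGGCGG. Among the 5 genes, TGACG and TATAA were found in the Gch1 window alone, CCAAT in those of Gch1, Gchfr and Qdpr, and GGGCGG in all 5. Over the 32851 windows of this length in the RefSeq table, 20.8% held TGACG, 24.9% TATAA, 37.4% CCAAT, 35.7% GGGCGG and 8.30% TTCNNNGAA. These are matches of letters and say nothing about binding.

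Gch1, the entry enzyme (gene ID 14528, probe set 1420499_at), was at a log2 level of 10.87 in control 1 and 10.55 in control 2. It was at 10.11 in DIO 1 and 10.28 in DIO 2. The lower control thus lay above the higher DIO array, and the groups did not overlap. The log2 difference was -0.52 ± 0.17 (SE, n = 2 and 2), with a 95% confidence interval from -0.98 to -0.05, so that the DIO level was 0.700 times the control level (interval 0.506 to 0.968). This did not pass in limma (unadjusted p = 0.0375, adjusted p = 0.728), and 850 genes had a smaller p. The unadjusted p in limma was 0.0754 with the probe sets averaged, 0.0813 with gene table medians centred, 0.0675 with the replicate number as a block, 0.0816 without control 1, 0.189 without DIO 1 and 0.102 without DIO 2. It was 0.0122 without control 2. Of all genes, 6.10% had a difference as low as that of Gch1 or lower.

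The other probe set of Gch1, 1429692_s_at, read 7.52 and 7.02 on the control arrays and 6.78 and 7.01 on the DIO arrays, a difference of -0.38 ± 0.22 (adjusted p = 0.637 in limma over all probe sets). Its groups were separated by only the small gap between control 2 and DIO 2. Both probe sets gave the same order of arrays, with control 1 highest and DIO 1 lowest. Leaving out control 2, the array with high epidermal genes, left the difference of Gch1 at -0.67, and leaving out control 1 left it at -0.36. As the groups did not overlap, its sign could not change with 1 array left out. With each array centred on the median of its gene table, a scaling chosen after seeing the data, the difference was -0.42.

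Values of other measures lay beside that of Gch1 as follows. Of the 12 endothelial markers, 4 had lower values in both DIO arrays, against 17% of all genes, and 1 had higher values, against 21.4%. Their median difference was -0.14, with 7 lower and 5 higher means in DIO. At an unadjusted p below 0.05 in limma there was 1 of the 12, against 6.58% of all genes. It was Flt1, named after its values were seen, at -0.50 ± 0.16. The small subunit ribosomal RNA separated the groups as Gch1 did, being lower in both DIO arrays. Another quality measure, the 3′ minus 5′ signal of control probe sets, overlapped between the groups. For Gapdh it was 0.10 and 0.15 on the control arrays and 0.07 and 0.21 on the DIO arrays. For actin it was 0.21 and 0.33 on the control arrays and 0.25 and 0.30 on the DIO arrays. Macrophages, which make BH4 when activated, were represented by 8 markers that had mean levels of 6.14 and 6.16 on the control arrays and 6.22 and 6.20 on the DIO arrays, and the general leukocyte gene Ptprc stayed between 3.84 and 4.11. Of these 8, 3 had higher values in both DIO arrays, against 21.4% of all genes, and 1 had lower values in both, against 17%. All 4 were named after their values were seen. Those higher were the Fc receptor Fcgr1, with a difference of 0.36 ± 0.12, Adgre1 with 0.32 ± 0.16 and Ptprc with 0.18 ± 0.13. These 3 were dim, with mean levels of 4.59, 4.77 and 3.94. The one lower was Csf1r, the receptor for macrophage colony-stimulating factor, with -0.49 ± 0.14 and a bright mean level of 11.32. Of the 8 markers, 6 had a mean below the median of all gene means. At an unadjusted p below 0.05 in limma there were 2 of the 8, Fcgr1 and Csf1r, against 6.58% of all genes. With probe sets averaged, the differences were 0.26 for Fcgr1, 0.32 for Adgre1, 0.02 for Ptprc and -0.42 for Csf1r. None of the 4 passed in limma (the smallest adjusted p was 0.728). The part of these measures in the Gch1 result was not tested. In such bulk samples, fewer cells of a type and less RNA per cell cannot be told apart.

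Gchfr, the regulatory protein that binds Gch1 (gene ID 320415, probe set 1435750_at), read 9.86 and 9.07 on the control arrays and 9.82 and 9.59 on the DIO arrays. Control 1 was the highest of the 4 arrays and control 2 the lowest, so both DIO arrays lay between the controls. The difference was 0.24 ± 0.31 (95% interval -0.61 to 1.08, adjusted p = 0.875 in limma). It was 0.63 without control 1 and turned to -0.15 without control 2. The direction of Gchfr thus depended on which control it was set against.

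Because the enzyme and its regulator form a complex, the within-array difference of their log2 levels was compared as well. Gch1 minus Gchfr was 1.01 in control 1 and 1.48 in control 2, and 0.30 in DIO 1 and 0.69 in DIO 2. The levels of different probe sets have no common scale, so only the change from array to array can be read, and by this measure both DIO arrays were below both controls. The group difference was -0.75 (exact 2-sided permutation test over 4 arrays, p = 0.333, the smallest this design can give). It was -0.52 without control 2 and -0.99 without control 1. The value shows unequal change of the Gch1 and Gchfr signals, and not which of them changed.

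Pts, the synthase of the second step (gene ID 19286, probe set 1450660_at), read 7.87 and 7.93 on the control arrays and 8.15 and 8.08 on the DIO arrays. Its replicates were the closest among the 5 genes, with gaps of 0.06 between the controls and -0.08 between the DIO arrays (mouse 2 minus mouse 1), and both DIO arrays were above both controls. The difference of 0.22 ± 0.12 had a 95% interval from -0.12 to 0.55 and did not pass in limma (adjusted p = 0.761). Its other probe set, 1458402_at, was dim at 3.53 and 3.60 on the control arrays and 3.80 and 3.70 on the DIO arrays. That probe set differed by 0.19 ± 0.12 in the same direction. How far so dim a signal lies above background is unknown, as no detection calls were used.

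Spr, sepiapterin reductase, which completes BH4 (gene ID 20751, probe set 1432372_a_at), read 9.42 and 8.63 on the control arrays and 9.27 and 9.04 on the DIO arrays. As for Gchfr, control 1 was highest and control 2 lowest, with both DIO arrays between them. The difference was 0.13 ± 0.31 (95% interval -0.71 to 0.97, adjusted p = 0.938 in limma). It was 0.52 without control 1 and -0.26 without control 2.

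Qdpr, which recycles the oxidized cofactor (gene ID 110391), read 10.99 and 10.78 on the control arrays and 11.06 and 10.86 on the DIO arrays on probe set 1437993_x_at. The suffix of this probe set marks probes that can also match other transcripts. The difference was 0.08 ± 0.16 (95% interval -0.35 to 0.51, adjusted p = 0.925 in limma), and it turned to -0.03 without control 2 and to -0.03 without DIO 1. The other Qdpr probe set, 1423664_at, gave 9.72 and 9.27 on the control arrays and 9.71 and 9.39 on the DIO arrays, a difference of 0.05 ± 0.22. On both probe sets mouse 2 was lower than mouse 1 in either group, and the groups overlapped.

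For Gchfr, Spr and Qdpr the control mice differed from each other by more than the group means did. The value of control 2 minus control 1 was -0.79 for Gchfr, -0.78 for Spr and -0.21 for Qdpr, against a median absolute gap of 0.24 between the controls over all genes. Only 4.09% of genes had a control gap as low as that of Gchfr, and 4.19% one as low as that of Spr. Between the DIO mice, Gchfr and Spr were both lower in DIO 2, by gaps of -0.23 and -0.23. Within each group the pluripotency markers went the same way. Of the 12, 11 were lower in control 2 than in control 1, and 11 were lower in DIO 2 than in DIO 1. Across all arrays the order differed, as the mean of these markers was highest in DIO 1. The epidermal markers averaged highest in control 2. The part of either marker list in the gaps of Gchfr and Spr was not tested. Over all genes, 62.1% were lower in control 2 than in control 1, and 51.6% were lower in DIO 2 than in DIO 1.

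**Figure D2:**
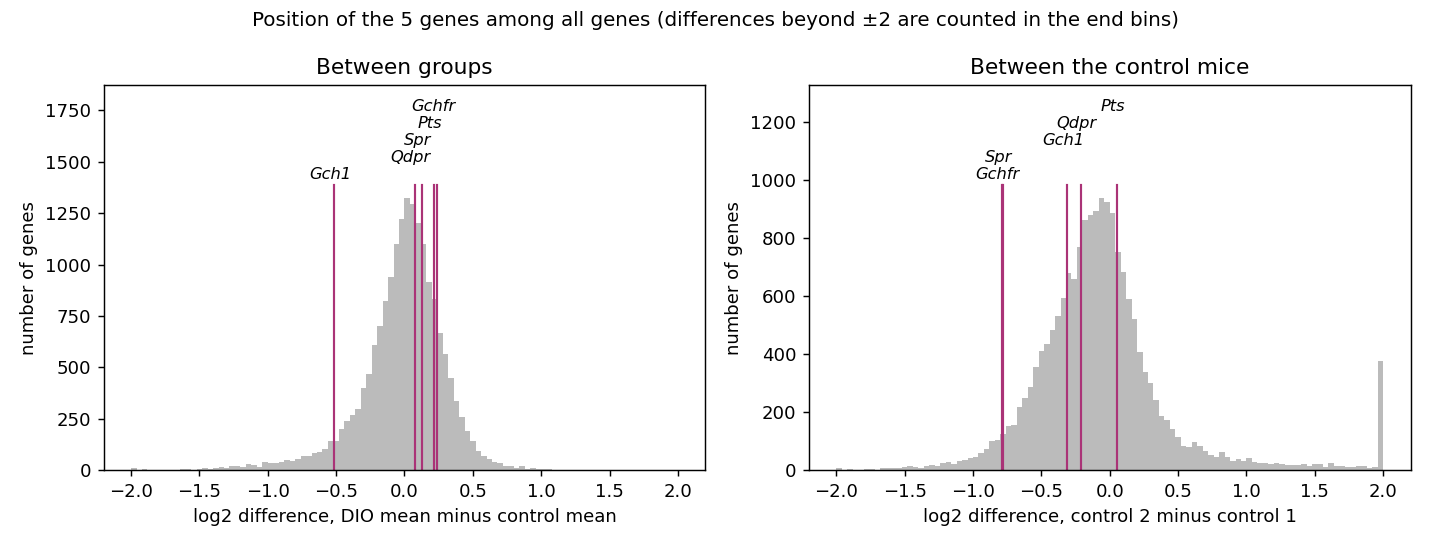
Number of genes (vertical axis) by log2 difference between the group means (left) and between control 2 and control 1 (right), over 18193 genes, with lines at the 5 BH4 genes. Gch1, at -0.52, lies in the lower tail of the group differences, while Gchfr and Spr, at -0.79 and -0.78, lie in the lower tail of the difference between the controls.

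The other genes that recycle BH4 or offer another route to it were given by Pcbd1, Pcbd2 and Cbr1. These were the 3 of 5 listed genes that were measured, the remaining genes of this list not being analysed here. None of the 3 passed in limma (the smallest adjusted p was 0.767), and their median difference was 0.10. Pcbd1, the dehydratase that acts on the cofactor after a hydroxylation, read 9.72 and 9.02 on the control arrays and 9.58 and 9.92 on the DIO arrays. Its groups overlapped, and its difference of 0.38 ± 0.30 was 0.02 without control 2, 0.73 without control 1 and 0.21 without DIO 2. Pcbd2, its paralog, read 9.81 and 9.81 on the control arrays and 9.93 and 9.89 on the DIO arrays, a difference of 0.10 ± 0.12 with both DIO arrays higher. Cbr1, a carbonyl reductase that can act on BH4 precursors, read 10.11 and 9.74 on the control arrays and 9.65 and 9.63 on the DIO arrays. Both DIO values of Cbr1 were below both controls, with a difference of -0.29 ± 0.17 that was -0.10 without control 1 and -0.47 without control 2.

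Of 8 listed enzymes that use BH4, 7 were measured, and 0 passed in limma (the smallest adjusted p was 0.761). Their median difference was -0.03, with 3 higher and 4 lower means in DIO, and 6 of the 7 had a mean below the median of all gene means. Nos3, the endothelial nitric oxide synthase, read 6.25 and 7.06 on the control arrays and 6.29 and 6.19 on the DIO arrays. Control 2 alone was high, and the difference of -0.42 ± 0.31 was -0.01 without it and -0.83 without control 1. Nos1, the neuronal form, read 9.28 and 8.37 on the control arrays and 8.76 and 8.89 on the DIO arrays, so that both DIO arrays lay between the controls. Its difference of 0.00 ± 0.34 was 0.46 without control 1 and -0.45 without control 2. Nos2, the inducible form, stayed between 5.03 and 5.29 on all arrays, with a difference of 0.10 ± 0.14 that was 0.01 without control 2 or without DIO 2, and 0.18 without control 1 or without DIO 1.

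Among the hydroxylases, Tph1, which starts serotonin synthesis, read 4.58 and 6.88 on the control arrays and 4.43 and 4.13 on the DIO arrays. The high value of control 2 set its difference of -1.44 ± 0.81, which was -0.29 without that array. Without control 1, Tph1 was among 483 genes that passed in limma, with a difference of -2.60 (adjusted p = 0.0241). That fit has control 2 as its only control, takes its spread from the DIO pair, and assumes that control 2 varies like the DIO arrays. Th, which starts dopamine synthesis, read 4.75 and 4.71 on the control arrays and 4.82 and 5.04 on the DIO arrays, a difference of 0.21 ± 0.14 with both DIO arrays higher, which was 0.32 without DIO 1 and 0.096 without DIO 2. Tph2 and Agmo, an ether lipid monooxygenase, were near the floor of the table, at 3.08 to 3.19 and 3.04 to 3.17, and their differences were -0.03 ± 0.12 and -0.05 ± 0.13.

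**Figure D3:**
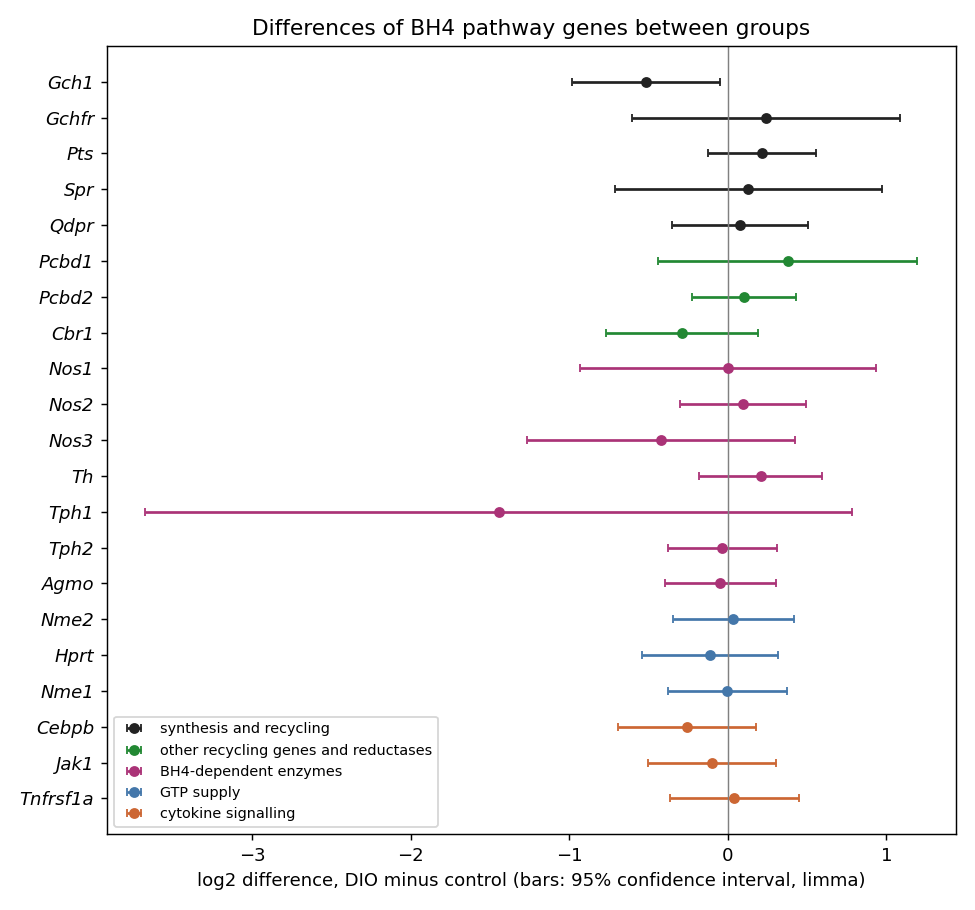
Log2 difference, DIO minus control (horizontal axis), of the 5 BH4 genes and of 16 other named genes of the pathway, with bars for the 95% confidence interval from limma and colours for the gene lists. The interval of Gch1, from -0.98 to -0.05, leaves out 0, and the intervals of the other 20 genes include it. No gene passed after adjustment over all genes.

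Genes that supply GTP, the starting material, did not pass either. Of 8 listed, 7 were measured, 0 passed in limma (the smallest adjusted p was 0.735), and their median difference was -0.05. The brightest were Nme2, Hprt and Nme1, which make or salvage guanine nucleotides. Nme2 read 13.85 and 13.65 on the control arrays and 13.76 and 13.81 on the DIO arrays, a difference of 0.04 ± 0.14. Hprt differed by -0.11 ± 0.16 and Nme1 by 0.00 ± 0.14. The groups overlapped for all 3, and each of these differences changed sign with 1 array left out. The groups did not overlap for 1 of the 7, against 38.4% of all genes. It was Impdh1, an enzyme of guanine nucleotide synthesis, named after its values were seen. Impdh1 read 7.26 and 7.06 on the control arrays and 7.42 and 7.51 on the DIO arrays.

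Inflammatory cytokines are known to raise Gch1, so genes of their signalling were also listed. Of 12 listed, 10 were measured and 0 passed in limma (the smallest adjusted p was 0.761). The median difference was -0.06, with 6 lower and 4 higher means in DIO, and both DIO arrays were below both controls for 3 of the 10, against 17% of all genes. Those 3 were Cebpb, which was fixed as a named gene by its brightness, and Jak2 and Il1r1, named after their values were seen. Cebpb, a transcription factor, read 12.25 and 12.28 on the control arrays and 11.85 and 12.15 on the DIO arrays, a difference of -0.26 ± 0.16 that was -0.11 without DIO 1 and -0.41 without DIO 2. Jak2, a kinase of cytokine receptors, differed by -0.20 ± 0.13, and by -0.13 without control 2. Jak2 was at -0.31 with its probe sets averaged (unadjusted p = 0.0417, adjusted p = 0.731 in limma). After quantile normalization it was at -0.11 (unadjusted p = 0.511 in limma). Il1r1, the receptor for interleukin-1, differed by -0.35 ± 0.20, by -0.12 without control 2 and by -0.58 without control 1. It was at -0.25 with probe sets averaged and at -0.24 after quantile normalization. Jak1 and Tnfrsf1a, a tumour necrosis factor receptor, overlapped between the groups, with differences of -0.10 ± 0.15 and 0.04 ± 0.15, whose signs turned with 1 array left out. With its probe sets averaged, Jak1 differed by -0.39 (unadjusted p = 0.0300, adjusted p = 0.731 in limma). After quantile normalization Jak1 differed by -0.075 (unadjusted p = 0.633 in limma).

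The genes whose values over the 4 arrays were most like those of Gch1 were sought among 9095 genes with a mean above the median. Likeness was the root mean square distance between log2 values after each gene's mean was subtracted. The nearest were Mob3c at a distance of 0.02, Ugp2, which makes UDP-glucose, at 0.03, Rnf208 at 0.03, Entpd7, a nucleotide phosphatase, at 0.03 and Fbf1 at 0.04. Mob3c read 8.51 and 8.18 on the control arrays and 7.74 and 7.86 on the DIO arrays. The other probe set of Gch1 lay at a distance of 0.10 from the first, and 94 of the 9095 genes were nearer than that.

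**Figure D4:**
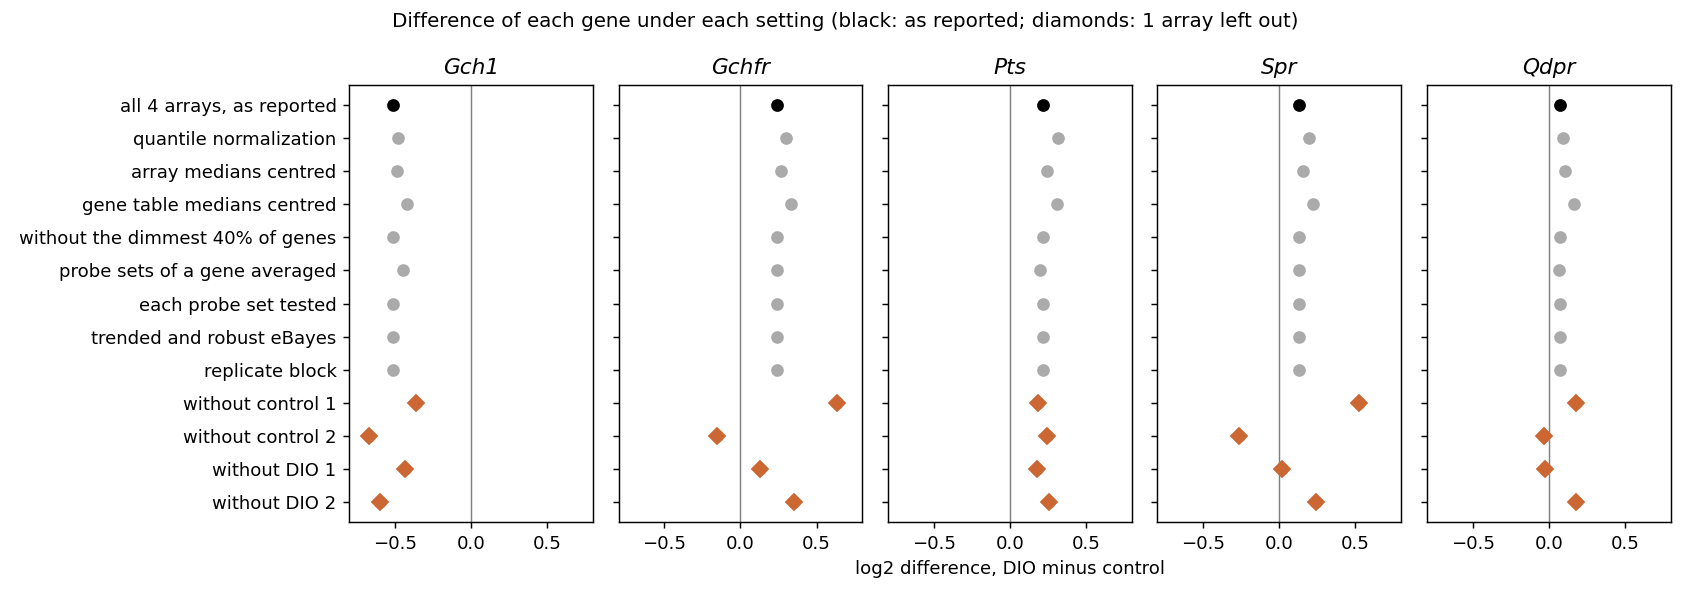
Log2 difference, DIO minus control (horizontal axis), of each of the 5 genes under each way of processing (rows), with black points for the values reported, grey points for other processing and diamonds for 1 array left out. Gch1 stays below 0 and Pts above 0 in every row. For the diamonds this follows from groups that do not overlap. Gchfr and Spr cross 0 without control 2, and Qdpr without control 2 or DIO 1.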

How the data were processed

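Total RNA was labelled by the Affymetrix 3' IVT Express method, per the labels' protocols. The values are log2 expression levels per probe set, deposited by the authors as 1 table. No source used here states how background was corrected, arrays were normalized or probes were summarised. The log2 scale was read from the values, which ran from 2.59 to 14.56. The array medians were 5.63, 5.65, 5.61 and 5.61. With 2 arrays per group the precision is limited by their number, and the 95% interval of a gene's difference had a median half-width of 0.46.

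The 64 manufacturer control probe sets were not tested. Each of 18193 genes was represented by its brightest probe set with 1 symbol in the platform annotation. All 5 gene IDs matched RefSeq (GRCm38.p6), from which promoter sequences were taken. DIO was compared with control by limma 3.58.1 in R 4.3.3 (lmFit and eBayes, 2-sided, Benjamini-Hochberg over all genes, threshold 0.05), tested on simulated data. Errors after ± are standard errors.

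The members and lists were chosen with earlier results of these data known. Named were all 5 members, the first 2 related lists, and the 3 brightest genes (and any that passed) of the GTP and cytokine lists. For Gch1, the 5 nearest profiles were named, without clone or predicted genes. Alternatives covered scaling, dim genes, probe sets, the variance model, a replicate block and left-out arrays. The marker lists for hepatocytes and fibroblasts (8 genes each) averaged from 5.61 to 7.39 and from 6.05 to 7.40 over the arrays, both highest in control 2.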

Additional observations from a re-analysis of the deposited data

How the results depend on the processing

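None of the 5 genes passed under any of the 12 alternatives. Gch1 stayed negative (-0.67 to -0.36 with 1 array left out, adjusted p from 0.300 to 0.9999 in limma over all alternatives) and Pts positive (0.18 to 0.25 with 1 array left out). As the groups of Gch1 and Pts did not overlap, their signs could not change with 1 array left out. With 1 array left out, Gchfr ran from -0.15 to 0.63, Spr from -0.26 to 0.52 and Qdpr from -0.030 to 0.18. The number of the 5 genes with every DIO array in the fit below every control ran from 1 to 3, and with every one above from 1 to 4. Counts other than 1 came only from fits with 1 array left out, where a group of 1 separates more easily. Shares over all genes were not computed for those fits, and the shares given above hold for all arrays together. The BH4-dependent enzymes that passed ran from 0 to 1. Among other named genes, with 1 array left out, the differences ran from -0.45 to 0.46 for Nos1, -0.065 to 0.14 for Nme2, -0.22 to 0.0018 for Hprt, -0.088 to 0.082 for Nme1, -0.074 to 0.16 for Tnfrsf1a, -0.11 to 0.017 for Agmo, -0.21 to 0.0079 for Jak1 and -0.076 to 0.0080 for Tph2. Nme1 was at 0.025 with array medians centred, 0.089 with gene table medians centred and 0.15 with probe sets averaged, and Jak1 at -0.39 with probe sets averaged. Gene table centring, chosen after seeing the data, put Tph2 at 0.058 and Agmo at 0.044. The causes were not tested.

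Over all genes, 594 were higher and 604 lower at an unadjusted p below 0.05 in limma. This split was 1072 to 327 with gene table medians centred, which moved the median difference from 0.02 to 0.11. It was 772 to 473 after quantile normalization. The split went the other way without the dimmest 40% of genes, at 216 higher to 391 lower, with a median difference of -0.02. Leaving out control 1, which leaves control 2 as the only control and assumes that it varies like the DIO arrays, gave 483 genes past the adjusted threshold, and leaving out any other array gave 0. With the replicate number as a block, the difference of Gch1, which a balanced block cannot alter, was -0.52. Its unadjusted p in limma went from 0.0375 to 0.0675 (adjusted p = 0.727), 0 genes passed and 982 had an unadjusted p below 0.05, in place of 1198. The gaps between mouse 2 and mouse 1 correlated at 0.333 across genes between the groups, which are not independent replicates, and no label says that the numbers pair the mice. Signal over background is unknown for dim genes such as Tph2 and Agmo.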
